A study of Homo sapiens with 18 samples.

Results

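Messenger RNA of MDA-MB-231 cells with a knockout of IMPDH2 (KO, 3 libraries) was set against that of unedited cells taken to be of the same line (WT, 3 libraries), which makes 6 of the 18 libraries of the series. The libraries were chosen by their labels alone: the KO cells received neither guanosine nor a re-expressed IMPDH2, and both genotypes are labelled untreated. The number that ends the cell line label rises by 1 from sample to sample, as does that of the enzyme's name in the genotype labels of the nuclear and cytosolic groups, and they were taken here as MDA-MB-231, the label of the first sample, and as IMPDH2, the name in the titles. MDA-MB-231 is an established triple-negative breast cancer line with a mesenchymal character. The remaining 12 libraries were knockout cells grown with 400 µM guanosine, or knockout cells that again carried IMPDH2 (without a stated location, nuclear or cytosolic), with 3 libraries each, and their levels are given only where they bear on a KO against WT result. The labels state neither how the gene was knocked out nor how many clones the KO cells represent, so what belongs to the loss of IMPDH2 and what belongs to the cells in which it was made cannot be told apart in this comparison. Nor do they state that libraries of 1 group are separate cultures, so a p measures only the spread between these samples.

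IMPDH2, inosine monophosphate dehydrogenase, converts inosine monophosphate to xanthosine monophosphate, the step that commits a purine to guanine rather than adenine. GMP synthetase then makes GMP, and kinases raise it to GTP, which serves RNA and DNA synthesis, G proteins, small GTPases and the polymerisation of tubulin. IMPDH1 is a second enzyme with the same activity, and guanine or guanosine can also enter the pool by salvage, mainly through the phosphoribosyltransferase HPRT1. Proliferating cells and many tumours use IMPDH2 as the main form. The comparison asks which messenger RNAs differ when the gene has been lost.

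Estimated counts totalled 52847041, 51595209 and 59694787 in the KO libraries and 56250168, 49850532 and 53106469 in the WT libraries. Gene levels are given as CPM (a gene's count relative to its library's total) with totals scaled by TMM, a method that assumes most genes do not differ, and each ± is an SD over 3 libraries. The scaling put the log2 fold change of the median gene at a value lower by 0.161 than library totals did, and all changes are relative to it. Tests are by quasi-likelihood in edgeR, fitted over all 18 libraries, and a difference was called where p, adjusted by Benjamini-Hochberg over all genes tested, was under 0.05. Mitochondrially encoded genes took 7.57, 7.69 and 7.91% of the counts of the KO libraries, against 5.21, 5.17 and 5.15% of those of the WT libraries. The 20 most abundant genes took 13.09 to 13.28% in KO and 9.26 to 9.32% in WT, and their part in the results below was not tested.

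IMPDH2 was read first, since it checks the labels. The gene (ENSG00000178035.13) lies at 49024325 to 49029408 on the minus strand of chromosome 3 (GRCh38). IMPDH2 had 41.4, 42.3 and 41.2 CPM in KO, against 319.5, 318.4 and 318.6 CPM in WT. It fell 7.66-fold in KO (log2 fold change -2.94 ± 0.033 SE, adjusted p = 1.34e-20 by quasi-likelihood in edgeR). The files hold 15 transcripts of the gene, and the reads left in KO were not divided among them alike in the 3 libraries. The coding transcript IMPDH2-201 had 0, 23.3 and 17.1 CPM of the library totals in KO, against 231.4, 210.9 and 218.5 CPM in WT. The transcript IMPDH2-235, annotated as a target of nonsense-mediated decay, had 26.6, 0 and 0 CPM in KO, against 13.7, 20.6 and 12.2 CPM in WT. Transcripts of one gene share most of their sequence, so the estimate of a single transcript is less certain than that of the gene. A locus that overlaps IMPDH2 and spans its neighbour QRICH1 (ENSG00000290315) had 3.36 ± 0.172 CPM in KO and 73.0 ± 7.97 CPM in WT. QRICH1 itself had 93.4 ± 1.79 CPM in KO and 99.4 ± 4.11 CPM in WT and did not pass the test (adjusted p = 0.560, same edgeR test).

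IMPDH1 (ENSG00000106348.19), at 128392277 to 128410252 on the minus strand of chromosome 7 in the same build, had 51.1, 50.5 and 50.4 CPM in KO, against 44.9, 44.2 and 42.1 CPM in WT. It rose 1.16-fold in KO (adjusted p = 1.08e-05, same edgeR test), and the groups did not overlap. Set against each other per length, in the deposited TPM (a level scaled for transcript length and depth), the level of IMPDH2 was 29.5 ± 0.91 TPM in KO and 218.9 ± 3.7 TPM in WT, while that of IMPDH1 was 27.5 ± 1.91 TPM in KO and 24.0 ± 1.14 TPM in WT. The levels of the pair summed to 57.0 ± 2.18 TPM in KO and 242.9 ± 4.63 TPM in WT. The higher level of IMPDH1 in KO was small beside the lower level of IMPDH2 messenger RNA.

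Most genes that handle guanine nucleotides moved less than IMPDH2. Of the 25 tested genes of the guanine branch and its salvage, breakdown and adenine side, IMPDH2 included, 14 rose and 9 fell, with ADSS1 alone at least 2-fold higher, IMPDH2 alone at least 2-fold lower and a median log2 fold change of 0.17. Over all genes tested the test called 72.7% and the median was 0.01. Over the coding genes alone it called 80.2% and the median was -0.07. GMPS, which makes GMP, fell to 83.9 ± 3.72 CPM in KO, against 109.2 ± 2.71 CPM in WT. Of the kinases, NME4, a mitochondrial nucleoside diphosphate kinase, had 45.7, 44.0 and 48.1 CPM in KO, against 24.4, 25.6 and 24.3 CPM in WT. It rose 1.86-fold, and NME3 rose 1.44-fold, to 15.2 ± 2.05 CPM in KO, against 10.6 ± 1.14 CPM in WT. NME2, a cytosolic form, rose 1.19-fold and GUK1, the GMP kinase, 1.14-fold, while NME1 fell 1.13-fold and NME6 fell 1.55-fold. NME7 did not pass (37.97 ± 1.05 CPM in KO and 38.5 ± 1.74 CPM in WT).

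HPRT1, the salvage enzyme for guanine and hypoxanthine, had 50.5, 50.4 and 50.9 CPM in KO, against 100.5, 95.6 and 94.4 CPM in WT. It fell 1.91-fold (log2 fold change -0.94 ± 0.043 SE, adjusted p = 6.23e-13 by quasi-likelihood in edgeR). PNP, which splits guanosine into guanine and ribose phosphate, rose 1.29-fold, to 146.8 ± 2.14 CPM in KO, against 114.1 ± 1.504 CPM in WT. On the breakdown side, GMPR, GMPR2 and NUDT16 rose by 1.15, 1.14 and 1.15-fold, while SAMHD1 and NT5C2 fell by 1.19 and 1.14-fold. GDA, the guanine deaminase, had 9 counts over all 18 libraries and was not tested. The gene that moved most was ADSS1, the muscle-type adenylosuccinate synthase, with 5.23, 5.77 and 6.08 CPM in KO, against 0.507, 0.466 and 0.4999 CPM in WT, an 11.5-fold rise. The common form ADSS2 rose only 1.09-fold. APRT, the salvage enzyme for adenine, rose 1.52-fold and ADK, the adenosine kinase, fell 1.57-fold, while AMPD2 did not pass (83.1 ± 2.14 CPM in KO and 81.2 ± 0.837 CPM in WT).

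The pathway that builds inosine monophosphate split evenly. Of its 9 genes 4 rose and 4 fell (44.4% each), none by 2-fold. Of all genes tested 35.9% rose and 36.8% fell, and of the coding genes 35.4% rose and 44.8% fell. PFAS had 133.5, 127.4 and 131.5 CPM in KO, against 87.7, 87.8 and 86.3 CPM in WT, a rise of 1.498-fold. ATIC, ADSL and GART rose by 1.32, 1.26 and 1.17-fold, and PRPS1, which makes the phosphoribosyl donor, fell 1.69-fold. PPAT, the first committed enzyme, stood at 47.9 ± 2.41 CPM in KO and 47.9 ± 1.73 CPM in WT. The main nucleoside transporter of the plasma membrane, SLC29A1, fell to 166.0 ± 6.32 CPM in KO, against 241.8 ± 3.11 CPM in WT. Of the 6 transporters tested 3 rose and 2 fell. Those at least 2-fold higher were SLC29A4, with 2.45 ± 0.0583 CPM in KO and 0.685 ± 0.0652 CPM in WT, and SLC28A3, with 1.38 ± 0.0588 CPM in KO and 0.260 ± 0.0316 CPM in WT.

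Most of the transcriptome differed. Of 19252 genes tested 6912 rose (35.9%) and 7084 fell (36.8%), and 2458 rose (12.8%) and 1919 fell (9.97%) by at least 2-fold. The 3 KO and 3 WT values did not overlap for 74.7% of the genes. Among the 14000 coding genes 4957 rose (35.4%) and 6278 fell (44.8%), with 8.84% at least 2-fold higher, 10.6% at least 2-fold lower, 81.3% without overlap and a median of -0.07. The 5252 noncoding genes leaned the other way, with 1955 higher and 806 lower and a median of 0.34. Coding genes with long transcripts had lower values, with a median of 0.07 among the 3500 with the shortest and -0.2 among the 3500 with the longest, and the closing section gives the medians of the lists under an offset for transcript length. By transcript type, protein-coding transcripts took 83.9 ± 0.089% of counts in KO and 85.5 ± 0.27% in WT, lncRNA took 1.71 ± 0.01% in KO and 1.23 ± 0.034% in WT, and mitochondrial ribosomal RNA took 1.104 ± 0.018% in KO and 0.577 ± 0.005% in WT. In a two-sided exact permutation test each of these had p = 0.1, the smallest that 3 against 3 libraries allow, so none could pass. With so many genes called, a list's counts are to be set against the 35.4% higher and 44.8% lower of all coding genes.

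**Figure D1:**
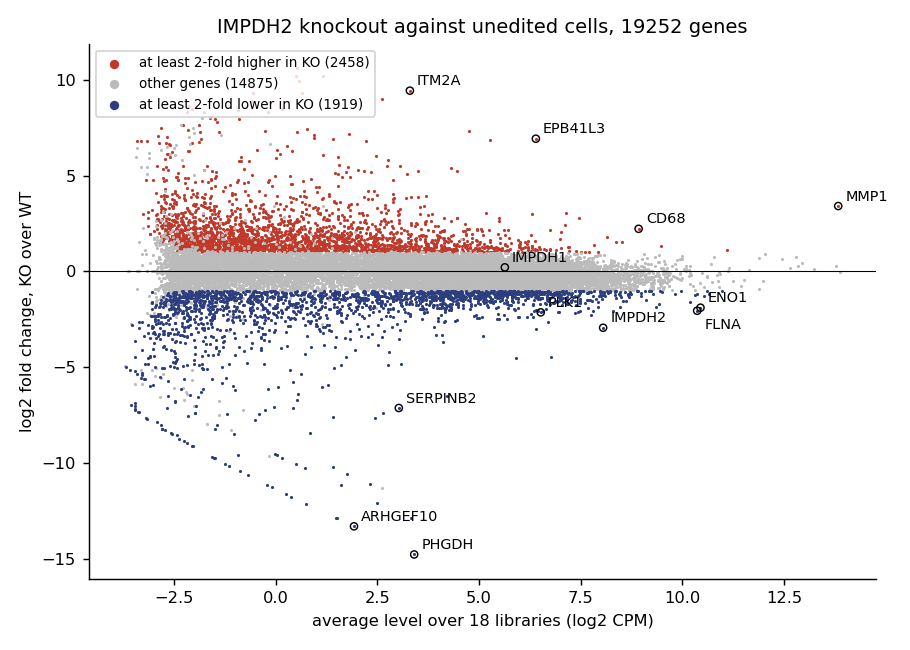
Log2 fold change of KO over WT (vertical) against the average log2 CPM over 18 libraries (horizontal) for 19252 genes, 1 point per gene. Coloured points passed the test with at least a 2-fold difference, 2458 higher and 1919 lower in KO, and the labelled genes are named in the text.

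Among coding genes with the largest rise were several of which WT held hardly any reads. EPB41L3, a membrane skeleton protein, had 82.7, 78.5 and 81.6 CPM in KO, against 0.733, 0.721 and 0.540 CPM in WT. VWA5A, a protein with a von Willebrand factor domain, had 79.0, 77.0 and 75.0 CPM in KO, against 0.376, 0.721 and 0.920 CPM in WT, a rise of 115.3-fold. HCLS1, an actin-binding adaptor of blood cells, had 32.8, 31.8 and 33.6 CPM in KO, against 0.883, 0.848 and 0.620 CPM in WT. All KO libraries stood far above all WT libraries in each case, and the spread within a group was small beside the gap. PGM5, a phosphoglucomutase-like protein of adhesion sites, reached 32.4 ± 1.78 CPM in KO, against 0.200 ± 0.0172 CPM in WT. DGKG, a diacylglycerol kinase, rose 34.0-fold to 19.8 ± 1.92 CPM in KO, and AMOT, an angiomotin of the Hippo pathway, rose 37.5-fold to 11.1 ± 0.592 CPM in KO. The cancer-testis genes MAGEB1 and XAGE2, both on the X chromosome, rose 37.5-fold and 27.2-fold. SCG5, a chaperone of prohormone convertase, rose 15.1-fold, and PI3, the elastase inhibitor elafin, rose 18.1-fold.

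These genes were not at the WT level in the other knockout-derived groups either. HCLS1 averaged 22.6 CPM in knockout cells with guanosine, and 19.8, 17.8 and 23.4 CPM in those with unlocalised, nuclear and cytosolic IMPDH2. VWA5A averaged 37.9, 40.8, 45.9 and 28.0 CPM in the same order. PI3 averaged 3.96, 5.85, 3.60 and 2.47 CPM, between the 0.804 CPM of WT and the 14.6 CPM of KO. The 4 groups share their origin with KO, and no difference between them and KO was tested here.

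**Figure D2:**
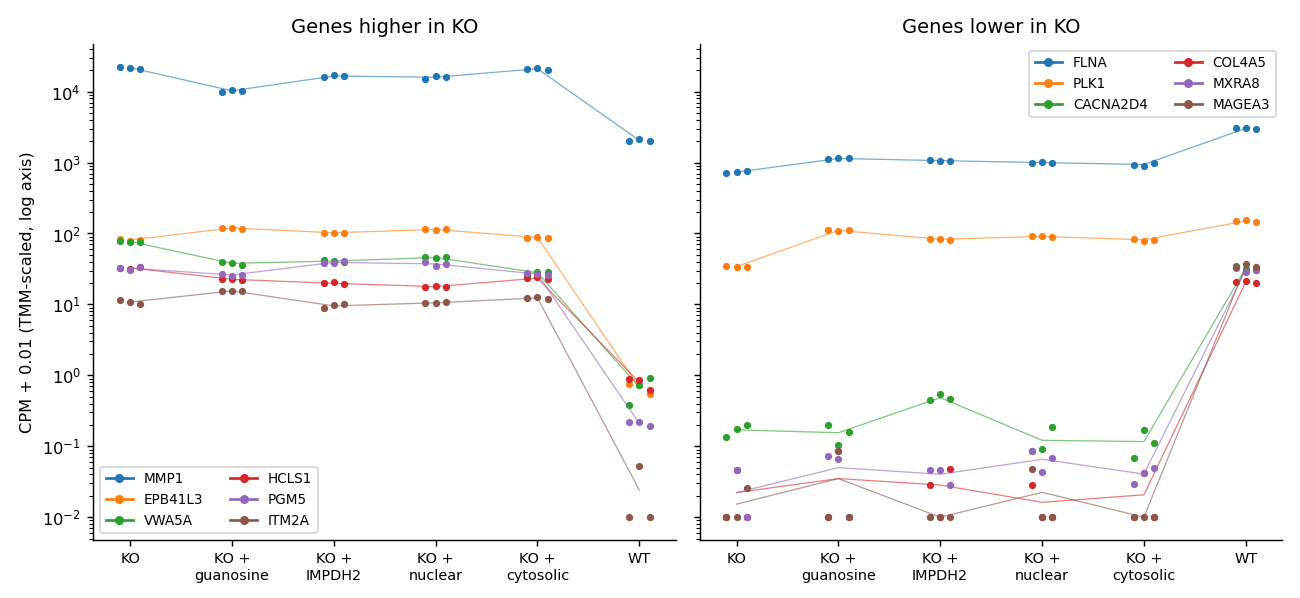
Levels of 12 genes (CPM plus 0.01, log axis) in 6 groups, with KO at the left and WT at the right and 1 point per library. MMP1, EPB41L3, VWA5A, HCLS1, PGM5 and ITM2A are far above WT in KO, and FLNA, PLK1, CACNA2D4, COL4A5, MXRA8 and MAGEA3 are below it.

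Among coding genes that fell most, 9 had no count in any KO library and at least 5 CPM in WT. PHGDH, the first enzyme of serine synthesis, had 0 counts in KO, against 9766 counts over the 3 WT libraries (62.8, 65.5 and 66.7 CPM). A count of 0 allows up to 3 counts, or 0.0173 CPM over the 3 KO libraries, so PHGDH was at least 3760-fold lower in KO, where this floor covers counting error only. ARHGEF10, an exchange factor for small GTPases, had 0 counts in KO and 23.4, 24.0 and 23.03 CPM in WT. The others were TUBA3C, MAGEA12, MAGEA10, MAGEA2, MAGEA2B, ERICH1 and DCAF12L1, of which the last 4 were named after their values were seen. Each of the 9 was under 1 CPM in all 4 other knockout-derived groups as well. No gene was at 0 in all WT libraries with 5 CPM or more in KO. MAGEA genes are near copies of one another, as is TUBA3C of other alpha tubulins, so reads of single members are uncertain.

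Other genes kept only a few counts. MXRA8, a receptor of the immunoglobulin superfamily, had 2 counts over KO, against 4629 over WT, and COL4A5, a basement membrane collagen, had 2 over KO, against 3117 over WT. KAZN, a cytoskeletal protein, had 5 over KO, against 1640 over WT. CACNA2D4, a calcium channel subunit, had 0.126, 0.165 and 0.190 CPM in KO, against 34.6, 31.6 and 30.9 CPM in WT, a fall of 197.8-fold. It averaged 0.145 CPM with guanosine and 0.474, 0.111 and 0.106 CPM with unlocalised, nuclear and cytosolic IMPDH2, so no knockout-derived group came near WT. The direct neighbour of COL4A5, COL4A6, stood at 2.73 ± 0.0490 CPM in KO and 1.74 ± 0.157 CPM in WT, and ZNF697, which lies next to PHGDH, at 33.8 ± 0.986 CPM in KO and 35.7 ± 0.964 CPM in WT. Further out on the same side of COL4A5, ATG4A and PSMD10 had log2 fold changes of -1.76 and -1.02. By log2 fold change alone, with no passing p required, the 6 tested neighbours of MXRA8 within 3 genes on either side were all below 0. Of these 4 were at least 2-fold lower, down to -1.56 for DVL1, while TAS1R3 had 55 counts in KO and 53 in WT. By the same measure the 4 tested neighbours of KAZN were each at least 2-fold lower. The lowest was FHAD1 at -2.67, with only 9 counts in KO and 52 in WT. The neighbours were looked up after the values were seen.

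Silent genes in KO also lay side by side. ARHGEF10 and CLN8 are 2 of 8 consecutive tested coding genes at the end of the short arm of chromosome 8, from FBXO25 to CSMD1 (406428 to 4994972 in GRCh38), a run that was found after the values were seen. Over the 3 KO libraries the 8 genes had 2 counts in all, against 7660 counts over the 3 WT libraries, and over the 12 other knockout-derived libraries they had 17. In single genes the counts were 1 in KO and 938 in WT for FBXO25, 0 and 288 for TDRP, 0 and 1105 for ERICH1, 1 and 1513 for CLN8, 0 and 3530 for ARHGEF10, 0 and 57 for KBTBD11, 0 and 103 for MYOM2, and 0 and 126 for CSMD1. The next tested genes inward were alike in both groups, MCPH1 with 10.8 CPM in KO and 10.6 CPM in WT, and AGPAT5 with 38.6 CPM in KO and 38.0 CPM in WT. Beyond these the genes were not all alike. PRAG1 had 15.4 CPM in KO and 41.2 CPM in WT, and PPP1R3B had 10.55 CPM in KO and 9.48 CPM in WT. On the outer side ZNF596 kept 20 counts in KO, against 156 in WT. Only RNA was measured here.

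A search for further runs, also made after the values were seen, took neighbouring tested coding genes that all differed at least 8-fold in one direction. It used the fold change alone, with no passing p and no minimum level beyond the filter, so genes with few counts can be among them. With at least 3 genes in a run there were 5 lower and 7 higher runs. The longest lower run held 10 genes on the X chromosome from MAGEA10 to MAGEA6 (152133310 to 152769747), and another held TFF3, TFF2 and TFF1 on chromosome 21, the trefoil factors of mucosal epithelia. The longest higher run held 5 genes on the X chromosome, LPAR4, P2RY10, ITM2A, TBX22 and TENT5D. A run on chromosome 5 held the protocadherins PCDHA12, PCDHA13, PCDHAC1 and PCDHAC2, whose transcripts share exons. Another on chromosome 6 held the MHC class II genes HLA-DRB5, HLA-DRB1 and HLA-DQB1, and single values of HLA genes are uncertain.

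**Figure D3:**
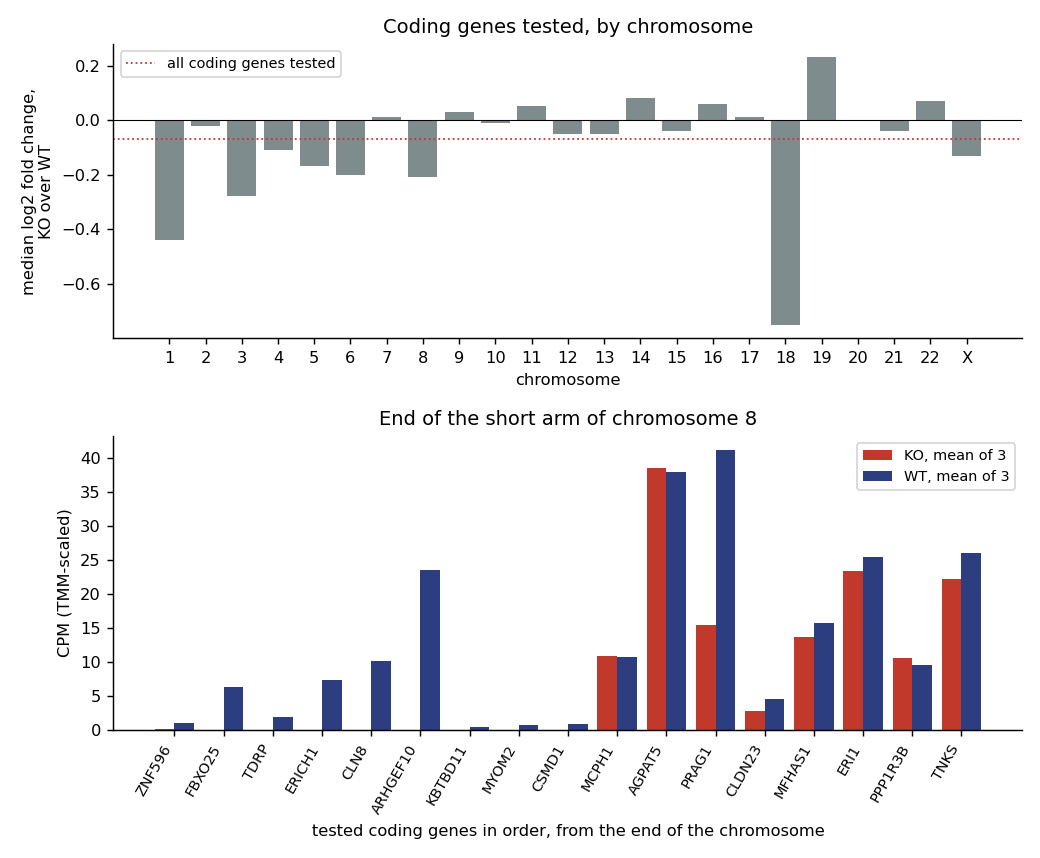
Top, median log2 fold change of KO over WT of the coding genes tested on each chromosome, with the median of all coding genes (-0.07) as a dotted line; chromosome 18 is lowest at -0.75 and chromosome 19 highest at 0.23. Bottom, mean CPM of the tested coding genes in order from the end of the short arm of chromosome 8 in KO and WT, where the 8 genes from FBXO25 to CSMD1 have 2 counts in all in KO, against 7660 in WT.

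By whole chromosomes, 36.7% of the tested coding genes on chromosome 18 and 22.6% of those on chromosome 1 were at least 2-fold lower in KO. On chromosome 8 the share was 17.2%, and of all coding genes it was 10.6%. On chromosome X 15.5% were at least 2-fold higher and 20.5% at least 2-fold lower, and on chromosome 19 13.5% were at least 2-fold higher, against 8.84% of all. Not all genes of chromosome 18 fell, since EPB41L3 and LAMA1, which rose, lie there too. Several genes named below lie on chromosomes 1 or 18, so each list with 5 or more such members is also given without them. Not every such gene is marked: ENO1, CSF1, ROR1, ERRFI1 and IFI44, which fell, lie on chromosome 1 too. FLNA, HPRT1, PRPS1 and DKC1, which also fell, lie on the X chromosome.

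Among the most abundant genes, MMP1 moved most. MMP1, the interstitial collagenase, had 22570, 21750 and 21020 CPM in KO, against 2012, 2128 and 2005 CPM in WT. It rose 10.6-fold (log2 fold change 3.41 ± 0.041 SE, adjusted p = 3.14e-20 by quasi-likelihood in edgeR). By itself it took 2.38, 2.3 and 2.22% of the counts of the KO libraries, against 0.19, 0.2 and 0.19% of those of the WT libraries. Its level averaged 10250 CPM in knockout cells with guanosine, and 16590, 15950 and 21000 CPM in those with unlocalised, nuclear and cytosolic IMPDH2.

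Other abundant genes that rose included CD68, a lysosomal glycoprotein used as a macrophage marker, with 702.7, 663.9 and 676.1 CPM in KO, against 143.2, 149.8 and 144.5 CPM in WT. TPP1, a lysosomal peptidase, rose 2.95-fold, FTL, the ferritin light chain, 2.20-fold, and PPP1R15A, which reverses phosphorylation of the initiation factor eIF2, 2.57-fold. TFPI2, a matrix-bound protease inhibitor, had 308.1, 319.0 and 291.2 CPM in KO, against 41.0, 44.0 and 45.97 CPM in WT. In CCDC85B a single library stood out, with 213.3, 205.9 and 325.5 CPM in KO, against 53.0, 42.1 and 43.6 CPM in WT, yet the groups did not overlap. PTX3, a secreted pentraxin, rose 3.53-fold and TOMM34, a cytosolic cochaperone of mitochondrial import, 2.01-fold.

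Of abundant genes that fell, FLNA, the actin cross-linker filamin A, had 713.7, 731.1 and 751.7 CPM in KO, against 3114, 3037 and 2954 CPM in WT, a fall of 4.15-fold. PLEC, plectin, had 628.0, 707.0 and 778.6 CPM in KO, against 2273, 2193 and 1885 CPM in WT, and AHNAK fell 2.34-fold. ENO1 and LDHA of glycolysis fell 3.71-fold and 2.44-fold, and SCD, the stearoyl-CoA desaturase, fell 3.20-fold. TUBA1B, an alpha tubulin, fell to 875.2 ± 14.7 CPM in KO, against 1978 ± 18.7 CPM in WT, and averaged 2007 CPM with guanosine and 1587, 1617 and 1589 CPM with unlocalised, nuclear and cytosolic IMPDH2. HSP90AB1, a chaperone, YWHAZ, a 14-3-3 protein, and IGFBP4, which binds insulin-like growth factors, fell by 2.03, 2.25 and 2.05-fold.

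**Figure D4:**
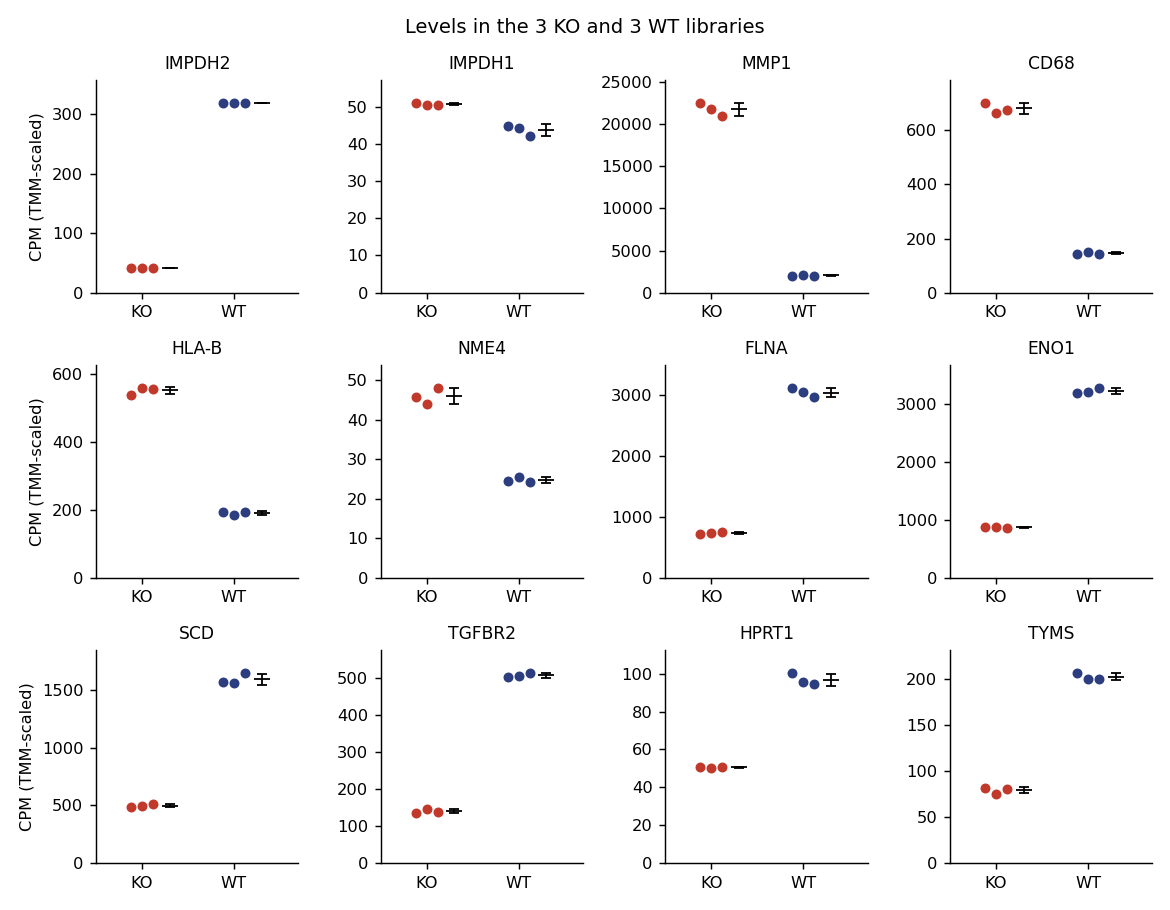
CPM of 12 genes in each of the 3 KO libraries and the 3 WT libraries, each panel on its own axis, with mean and SD as a bar. In every panel the KO points lie apart from the WT points, as for IMPDH2 (41.6 in KO and 318.8 in WT) and FLNA (732.2 in KO and 3035 in WT).

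The mitotic genes fell together. Of 44 genes of the mitotic list, all tested, 44 fell and 36 fell at least 2-fold, with a median log2 fold change of -1.51, against -0.07 over all coding genes, of which 44.8% fell. Each of the 6 roles was lower: the medians were -1.43 for the 8 kinases, -1.55 for the 6 cyclins and genes of the anaphase-promoting complex, -1.54 for the 12 motor and spindle genes, -1.68 for the 8 kinetochore genes, -1.51 for the 6 chromosome genes and -1.07 for the 4 regulators, of which 2 fell at least 2-fold. The 36 members on chromosomes other than 1 and 18 all fell as well, with a median of -1.39. The summed level of all 44 was 2926, 2889 and 2810 CPM in KO, against 7914, 8073 and 7815 CPM in WT. In the other knockout-derived groups it averaged 6647 CPM with guanosine, and 5252, 5541 and 5229 CPM with unlocalised, nuclear and cytosolic IMPDH2.

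KIF20A, a kinesin needed for cytokinesis, had 30.4, 29.5 and 30.0 CPM in KO, against 160.1, 160.9 and 153.8 CPM in WT, a fall of 5.28-fold. PLK1, the polo-like kinase that drives mitotic entry, had 34.3, 34.0 and 34.0 CPM in KO, against 149.3, 153.1 and 147.4 CPM in WT. DLGAP5, a spindle protein, and PRC1, which bundles midzone microtubules, fell 4.29-fold and 4.27-fold. A member of the same family chosen after its values were seen, CCNB2 (cyclin B2), had 23.6 ± 0.309 CPM in KO and 70.2 ± 0.849 CPM in WT.

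Many promoters of this class carry a cell cycle genes homology region (CHR), which is bound by the DREAM and MuvB complexes, a short distance after CCAAT boxes bound by NF-Y. The promoters of PLK1 (chr16:23678639-23678938, plus strand) and CCNB2 (chr15:59104896-59105195, plus strand) are shown because they hold both motifs in this order. They run from 250 bases before to 50 bases after the start, are taken from RefSeq (GRCh38.p14), and have TTTGAA, the CHR letters, and CCAAT in capitals.
PLK1: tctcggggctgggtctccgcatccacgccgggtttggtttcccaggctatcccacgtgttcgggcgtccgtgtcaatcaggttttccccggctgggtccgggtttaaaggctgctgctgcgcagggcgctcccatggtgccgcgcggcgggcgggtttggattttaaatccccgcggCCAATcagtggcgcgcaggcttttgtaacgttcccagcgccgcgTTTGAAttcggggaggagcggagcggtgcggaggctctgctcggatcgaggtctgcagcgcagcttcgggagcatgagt
CCNB2: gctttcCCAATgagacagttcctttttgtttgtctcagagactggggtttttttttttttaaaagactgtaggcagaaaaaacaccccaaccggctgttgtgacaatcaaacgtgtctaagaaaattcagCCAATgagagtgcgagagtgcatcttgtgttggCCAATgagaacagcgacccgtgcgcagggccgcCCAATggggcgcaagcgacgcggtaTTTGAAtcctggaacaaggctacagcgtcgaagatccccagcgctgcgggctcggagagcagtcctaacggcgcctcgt
In both, TTTGAA lies at position -29 from the start, and in PLK1 CCAAT lies at position -73. A promoter was given for 38 of the 44 members, and 25 of these (65.8%) held TTTGAA on either strand, against 15.4% of 27305 promoters and 10.1% of the 11242 promoters of tested coding genes. CCAAT was found in 27 (71.1%), against 35.7% of all promoters. The motifs do not overlap each other in letters, and a match is a description of the sequence only.

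Genes of the earlier cell cycle did not move as a block. Of 33 genes of the transition from G1 to S phase 15 rose and 16 fell. That is 45.5% and 48.5%, against 35.4% and 44.8% of all coding genes. Of the list 1 was at least 2-fold higher and 5 at least 2-fold lower, with a median of -0.11. MYC had 332.5, 309.7 and 328.7 CPM in KO, against 178.2, 175.9 and 176.1 CPM in WT, and CDK4, the kinase partner of D cyclins, rose 1.97-fold. Among MYC, its partners and relatives 7 of 9 rose and 1 fell. The CDK inhibitors CDKN2C and CDKN2D fell 3.67-fold and 2.71-fold, CDC25A, a phosphatase that activates CDKs, fell 2.63-fold, and CDKN1C rose 2.61-fold to 6.80 ± 0.937 CPM in KO. The E2F site TTTCCCGC was found in 1 of 25 promoters of the list (4.0%), against 1.7% of all.

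Interferon-stimulated genes were mostly higher. Of 39 tested 26 rose and 10 fell, 14 rose and 1 fell at least 2-fold, and the median was 0.55, against 35.4% higher and a median of -0.07 over all coding genes. Without chromosomes 1 and 18, 23 of 34 rose and 8 fell. The genes of interferon signalling had 4 higher and 1 lower of 5, and the antiviral effectors 13 higher and 5 lower of 18. BST2, tetherin, which holds budding viruses at the cell surface, had 50.6, 53.4 and 54.2 CPM in KO, against 13.9, 13.9 and 14.9 CPM in WT. MX1, a dynamin-like GTPase that blocks viruses, had 6.23, 7.06 and 6.98 CPM in KO, against 1.80, 1.95 and 1.999 CPM in WT. The KO libraries were above the WT libraries throughout for both genes. USP18, which removes ISG15, and OAS1, an oligoadenylate synthase, rose 5.01-fold and 2.99-fold from low levels. IRF1, an interferon regulatory factor, fell to 20.3 ± 0.778 CPM in KO, against 37.1 ± 0.561 CPM in WT, and IFI44 fell 1.62-fold, so the list was not uniform. With an offset for transcript length IRF1 no longer passed. The summed level of the list was 2661, 2612 and 2644 CPM in KO, against 1953, 1926 and 2005 CPM in WT, and it averaged 1991 CPM with guanosine and 2647, 2536 and 2174 CPM with unlocalised, nuclear and cytosolic IMPDH2.

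Interferon acts on these genes through the interferon-stimulated response element (ISRE), whose core was searched as GAAANNGAA on both strands. The RefSeq promoters (GRCh38.p14) of BST2 (chr19:17405581-17405880, minus strand) and MX1 (chr21:41420308-41420607, plus strand) are shown because each holds overlapping copies of this core, in capitals.
BST2: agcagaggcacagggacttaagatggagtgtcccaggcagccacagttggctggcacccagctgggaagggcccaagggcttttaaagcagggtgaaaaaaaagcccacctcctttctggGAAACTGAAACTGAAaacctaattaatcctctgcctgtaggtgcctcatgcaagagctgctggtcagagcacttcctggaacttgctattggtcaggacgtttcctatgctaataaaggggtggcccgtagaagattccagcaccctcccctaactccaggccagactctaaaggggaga
MX1: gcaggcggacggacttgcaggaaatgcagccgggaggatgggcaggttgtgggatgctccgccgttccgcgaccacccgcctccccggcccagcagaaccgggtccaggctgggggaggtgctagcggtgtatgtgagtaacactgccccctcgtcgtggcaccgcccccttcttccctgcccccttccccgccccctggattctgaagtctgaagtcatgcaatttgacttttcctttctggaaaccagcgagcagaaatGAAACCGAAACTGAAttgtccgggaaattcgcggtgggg
Each has 2 overlapping matches, which lie before the start in BST2 and after it in MX1. Of the 30 members with a promoter given, 19 (63.3%) held the core, against 8.3% of all promoters and 6.7% of those of tested coding genes. The matches include genes that rose, such as BST2, and genes that fell, such as IFI44.

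Of the sensors of foreign or misplaced nucleic acid 7 of 17 rose (41.2%) and 6 fell (35.3%), with a median of 0.03. Of all coding genes 35.4% rose and 44.8% fell. AIM2, which detects cytosolic DNA, had 8.08, 7.79 and 7.08 CPM in KO, against 1.33, 1.696 and 1.58 CPM in WT. RIGI, the RNA sensor RIG-I, rose 2.01-fold and STING1 rose 1.54-fold, whereas CGAS, the DNA sensor upstream of STING1, fell 1.27-fold and TLR3, an endosomal RNA receptor, fell 3.73-fold. In antigen presentation 12 of 20 genes rose and 6 fell. HLA-B had 539.7, 560.0 and 556.0 CPM in KO, against 193.9, 183.8 and 194.6 CPM in WT, a rise of 2.89-fold, while HLA-C rose 1.79-fold. HLA genes differ between alleles and resemble each other, so their single values are uncertain. PSMB9, a subunit of the immunoproteasome, rose 2.23-fold, and PSMB10, another subunit, fell 1.57-fold. HLA-F rose 7.39-fold to 5.14 ± 0.633 CPM in KO.

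The chemokine and cytokine list was divided, with 16 of 44 tested genes higher (36.4%) and 21 lower (47.7%). These shares were near the 35.4% and 44.8% of all coding genes. Higher were 7 of 13 chemokines and 4 of 15 cytokines. IL11, a cytokine of the IL-6 family, had 6.86, 6.38 and 7.05 CPM in KO, against 71.7, 61.7 and 68.6 CPM in WT, a fall of 9.95-fold. CSF1, the macrophage growth factor, and IL18 fell 3.42-fold and 2.44-fold. IL2RG, the common gamma chain of lymphocyte cytokine receptors, had 16.4, 16.6 and 16.1 CPM in KO, against 0.864, 1.34 and 1.18 CPM in WT, a rise of 14.6-fold. IL1A rose 2.60-fold from a low level.

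Genes of TGF-beta signalling were mostly lower. Of 49 tested 32 fell and 10 rose, with 12 at least 2-fold lower, 2 at least 2-fold higher and a median of -0.47. The 65.3% lower and 20.4% higher compare with 44.8% and 35.4% of all coding genes. Without the 10 members on chromosomes 1 and 18, 25 of 39 fell and 9 rose, with a median of -0.37. Of the 11 receptors 9 fell and 1 rose, and of the 8 SMADs, the messengers of the pathway, 7 fell. TGFBR2, the ligand-binding receptor, had 136.2, 146.1 and 137.4 CPM in KO, against 503.8, 505.7 and 515.3 CPM in WT. It fell 3.63-fold (log2 fold change -1.86 ± 0.031 SE, adjusted p = 9.49e-19 by quasi-likelihood in edgeR). The coreceptor ENG fell 4.69-fold and the ligand TGFB2, on chromosome 1, fell 3.33-fold. BMP6 rose 3.24-fold, to 6.50 ± 0.298 CPM in KO, against 2.002 ± 0.293 CPM in WT, and LTBP1, which stores latent TGF-beta in the matrix, rose 1.46-fold. Among the 9 target genes of the list 4 rose and 4 fell.

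In the EGF receptor list 15 of 21 fell (71.4%) and 5 rose (23.8%). Its median was -0.46, and -0.13 with an offset for transcript length. Of all coding genes 44.8% fell and 35.4% rose. Of its 8 tested ligands 7 fell, among them EREG, with 21.3 ± 1.62 CPM in KO and 43.9 ± 2.60 CPM in WT, and HBEGF, which fell 1.87-fold. Of the 10 feedback inhibitors 7 fell and 3 rose: SPRY4 and ERRFI1 fell most, by 2.36-fold and 2.26-fold, while SPRY1, SPRY2 and DUSP6 rose by 1.34, 1.31 and 1.31-fold. The Wnt list had 18 of 34 lower (52.9%) and 10 higher (29.4%). FZD8, a Wnt receptor, had 203.9, 228.2 and 263.8 CPM in KO, against 30.4, 26.3 and 27.5 CPM in WT, a rise of 8.26-fold, and FZD4 rose 2.23-fold. CTNNB1, beta-catenin, fell to 254.2 ± 4.29 CPM in KO, against 533.6 ± 1.78 CPM in WT, and the receptor ROR1 fell 3.33-fold.

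In the Notch list 12 of 23 fell (52.2%) and 9 rose (39.1%), against 44.8% and 35.4% of all coding genes. The ligand JAG1 had 111.3, 126.3 and 112.7 CPM in KO, against 330.4, 349.2 and 349.8 CPM in WT, and the receptor NOTCH2, on chromosome 1, fell 1.84-fold. The ligands DLL4 and JAG2 rose, but to only 4.17 ± 0.622 and 3.77 ± 0.447 CPM in KO. DTX4, an E3 ligase of the pathway, rose 9.34-fold to 10.5 ± 0.204 CPM in KO. Among ephrins, semaphorins and their receptors 25 of 42 fell (59.5%) and 13 rose (31.0%). Without chromosomes 1 and 18, 21 of 35 fell and 10 rose. SEMA7A, a membrane-anchored semaphorin, had 21.7, 21.5 and 21.1 CPM in KO, against 121.5, 118.1 and 123.9 CPM in WT. EPHA2, on chromosome 1, fell 4.17-fold, and EPHB1 rose 13.6-fold, to 9.76 ± 0.589 CPM in KO, against 0.717 ± 0.0300 CPM in WT.

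The matrix and its receptors were lower in most lists. Of 34 collagens and laminins 25 fell (73.5%) and 5 rose (14.7%), with a median of -0.67. Without chromosomes 1 and 18, 20 of 27 fell and 3 rose. Of all coding genes 44.8% fell and 35.4% rose. COL8A1, a short-chain collagen, had 30.6, 31.9 and 31.8 CPM in KO, against 253.6, 252.2 and 261.8 CPM in WT, a fall of 8.15-fold. LAMA4 had 0.988, 1.14 and 1.19 CPM in KO, against 18.7, 19.5 and 17.9 CPM in WT, while LAMA1, another laminin alpha chain, rose 4.45-fold. Of 18 integrins 11 fell (61.1%) and 5 rose (27.8%), with 8 at least 2-fold lower (44.4%, against 10.6% of all coding genes). ITGB8 and ITGB5 fell 4.12-fold and 2.37-fold and ITGA6 fell 2.11-fold, whereas its partner ITGB4 had 91.9, 111.1 and 102.2 CPM in KO, against 55.3, 52.8 and 59.3 CPM in WT. Of 30 cadherins and junction genes 19 fell (63.3%) and 4 rose (13.3%). Without chromosomes 1 and 18, 15 of 25 fell and 3 rose. CLDN4, a tight junction claudin, fell 9.89-fold and CDH4, R-cadherin, fell 5.67-fold. The desmosomal cadherins DSC2 and DSG2, both on chromosome 18, fell 7.09-fold and 2.73-fold.

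Matrix proteases and their inhibitors moved in both directions but were lower more often, with 22 of 40 lower and 12 higher. Of all coding genes 44.8% were lower and 35.4% higher. At least 2-fold lower were 11 (27.5%, against 10.6% of all coding genes), and 4 were at least 2-fold higher. Beside MMP1, MMP3, stromelysin, had 42.4, 46.5 and 40.5 CPM in KO, against 6.37, 6.11 and 6.04 CPM in WT, and its gene lies near MMP1 on chromosome 11. MMP16, a membrane-bound member, fell 2.53-fold, ADAMTS15 fell 3.36-fold and ADAMTS7 rose 4.70-fold. SERPINB2, an inhibitor of plasminogen activators, had 0.305, 0.495 and 0.253 CPM in KO, against 46.02, 51.7 and 48.3 CPM in WT. It lies on chromosome 18 and fell 139.4-fold.

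**Figure D5:**
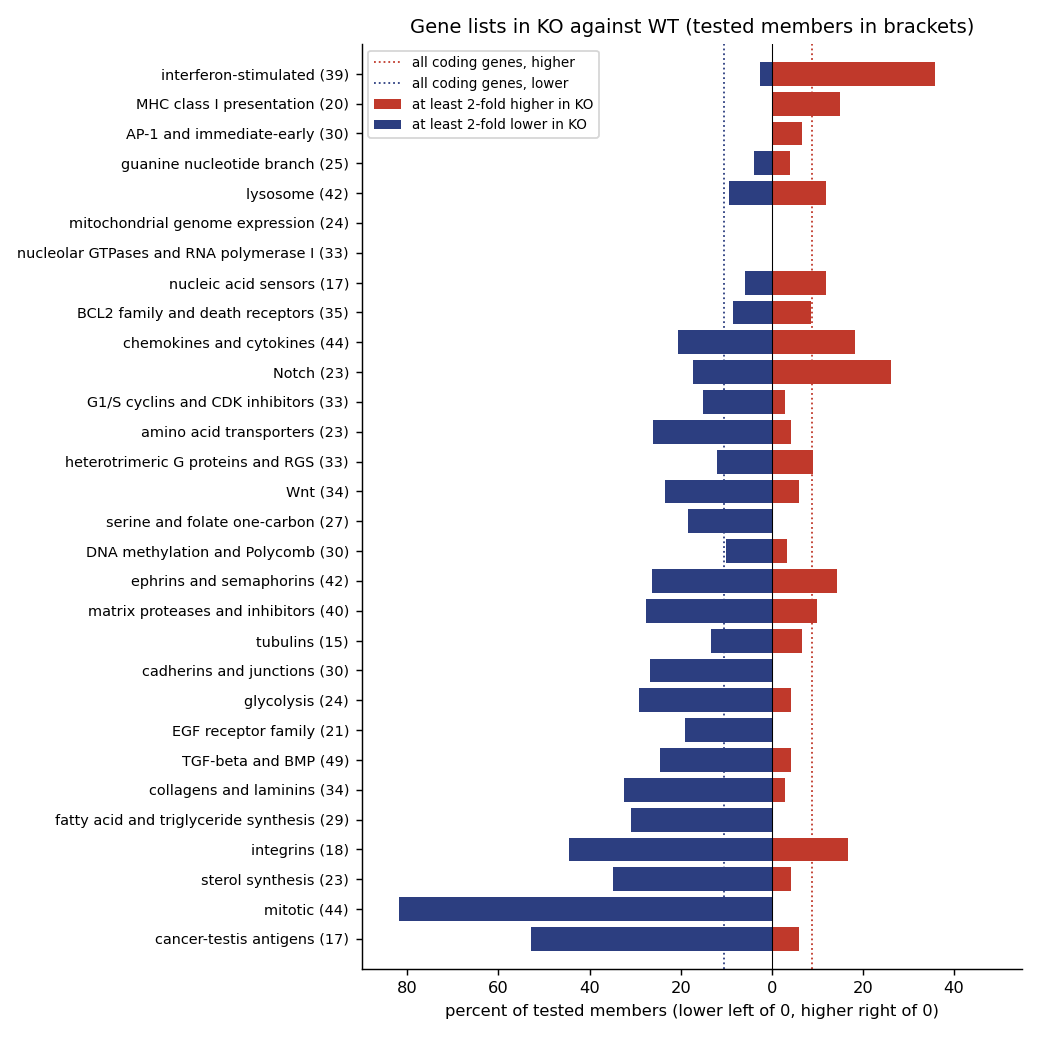
Percent of the tested members of each gene list that were at least 2-fold higher (right of 0) or at least 2-fold lower (left of 0) in KO than in WT, for the reported lists with 15 or more tested members. Dotted lines mark the shares of all coding genes, and the bars of the mitotic list (36 of 44 lower) and of the interferon-stimulated list (14 of 39 higher) reach far past them.

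In metabolism, genes of lipid and sterol synthesis and of glycolysis were lower in most cases. Of 29 genes of fatty acid and triglyceride synthesis 21 fell (72.4%) and 3 rose, with a median of -0.76. Of 23 sterol genes 20 fell (87.0%) and 3 rose, with a median of -0.78. Of all coding genes 44.8% fell. SREBF1, the transcription factor that drives lipid synthesis, had 35.5, 40.3 and 42.3 CPM in KO, against 118.3, 110.0 and 107.2 CPM in WT. INSIG1, which retains its precursor in the endoplasmic reticulum, fell 3.27-fold, and ME1, which makes NADPH, fell 3.76-fold. Without the 5 members on chromosomes 1 and 18 the sterol list had 16 of 18 lower. TM7SF2, a sterol reductase, rose 2.77-fold. The sterol regulatory element, searched as TCACNCCAC, was found in 1 of 17 promoters of the list (5.9%), against 1.1% of all.

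Of 24 glycolysis genes 17 fell (70.8%) and 5 rose (20.8%), with a median of -0.46. Of all coding genes 44.8% fell and 35.4% rose. SLC16A3, the lactate exporter MCT4, had 78.0, 94.2 and 94.1 CPM in KO, against 408.4, 383.1 and 392.2 CPM in WT. The glucose transporters moved apart: SLC2A1, on chromosome 1, fell 2.72-fold, and SLC2A3 rose to 80.2 ± 3.54 CPM in KO, against 41.9 ± 1.28 CPM in WT. Of 27 genes of serine and folate metabolism 16 fell (59.3%) and 5 rose (18.5%). Without chromosomes 1 and 18, 12 of 22 fell and 4 rose. All 5 genes of serine synthesis and hydroxymethyl transfer fell. Beside PHGDH, PSAT1, the next enzyme, had 57.8, 56.7 and 57.8 CPM in KO, against 124.2, 122.9 and 129.1 CPM in WT, and SHMT1 fell 2.37-fold. TYMS, thymidylate synthase, on chromosome 18, fell 2.57-fold. Among amino acid transporters 13 of 23 fell (56.5%) and 7 rose (30.4%). SLC7A11, the cystine importer, fell 2.95-fold and SLC1A4, a transporter of serine and other neutral amino acids, fell 3.09-fold.

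Families that bind or use GTP showed no common direction. Of 33 nucleolar GTPases and RNA polymerase I genes 15 rose (45.5%) and 13 fell (39.4%), none by 2-fold, with a median of 0.04. Of all coding genes 35.4% rose and 44.8% fell. RNA polymerase I subunits and factors had 9 higher and 5 lower of 14, with POLR1G at 55.9, 50.2 and 52.5 CPM in KO, against 28.3, 28.5 and 29.6 CPM in WT. The 8 nucleolar proteins had 6 lower, with TCOF1, treacle, and DKC1, dyskerin, lower by 1.82 and 1.81-fold. GNL1, a GTP-binding protein, rose 1.72-fold, and DRG2, another, fell 1.88-fold. RHOA, a small GTPase of the actin skeleton, had 275.3, 261.6 and 271.0 CPM in KO, against 618.0, 620.5 and 644.9 CPM in WT, and RND3, an atypical GTPase that opposes RHOA signalling, rose 1.67-fold. Of 33 genes of heterotrimeric G proteins and their regulators 22 fell (66.7%) and 7 rose (21.2%). Without chromosomes 1 and 18, 17 of 23 fell and 4 rose. GNA15 and GNAI2 were lower by 3.19 and 1.89-fold, and the regulator RGS16 was higher by 5.59-fold. GNB1, on chromosome 1, fell to 148.9 ± 2.02 CPM in KO, against 421.4 ± 2.58 CPM in WT. Of 15 tubulins 10 fell and 3 rose, and their summed level was 4248, 4163 and 4197 CPM in KO, against 7493, 7381 and 7448 CPM in WT. TUBB2B rose 2.47-fold and TUBA1C fell 1.87-fold, and tubulin genes resemble each other, so single members are uncertain.

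Lysosomal genes were higher more often than lower, with 22 of 42 higher (52.4%), 14 lower (33.3%) and a median of 0.10. Of all coding genes 35.4% were higher and 44.8% lower. GAA, acid alpha-glucosidase, had 81.9, 84.4 and 86.5 CPM in KO, against 26.4, 23.5 and 26.5 CPM in WT, and NEU1, a sialidase, rose 2.40-fold. LAMP2, a membrane protein of the lysosome, and GLA, alpha-galactosidase, fell 2.04-fold and 2.12-fold, and both lie on the X chromosome. Of 24 nuclear genes that serve the mitochondrial genome 11 rose (45.8%) and 4 fell (16.7%), none by 2-fold. TWNK, the mitochondrial helicase, had 85.7, 83.5 and 81.4 CPM in KO, against 45.0, 45.9 and 46.2 CPM in WT, and TFAM, which packs mitochondrial DNA, fell 1.116-fold.

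Of 35 genes of the BCL2 family and death receptors 12 rose (34.3%) and 15 fell (42.9%). These shares were near the 35.4% and 44.8% of all coding genes. BIRC3, an inhibitor of apoptosis, had 99.7, 103.8 and 95.8 CPM in KO, against 41.6, 41.5 and 47.0 CPM in WT. BCL2 and PMAIP1, which have opposite roles in apoptosis and both lie on chromosome 18, fell 2.68-fold and 2.25-fold. Of 30 AP-1 and immediate-early genes 16 rose (53.3%) and 9 fell (30.0%). Without chromosomes 1 and 18, 14 of 25 rose and 7 fell. EGR1 had 74.2, 77.8 and 72.9 CPM in KO, against 39.4, 44.8 and 39.2 CPM in WT, KLF4 rose 1.97-fold and FOSL2 fell 1.93-fold.

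Of the 17 tested cancer-testis antigens, which are normally silent outside the germ line, 10 fell (58.8%) and 5 rose (29.4%). At least 2-fold lower were 9 (52.9%, against 10.6% of all coding genes), and the median was -3.42. MAGEC1 had 1.22, 1.25 and 1.14 CPM in KO, against 107.1, 109.7 and 111.9 CPM in WT. In the other direction SPANXB1 had 162.7, 162.3 and 164.7 CPM in KO, against 97.3, 93.7 and 95.5 CPM in WT. Among regulators of DNA methylation and Polycomb genes, 22 of 30 fell (73.3%, against 44.8% of all coding genes) and 5 rose. RING1, a Polycomb ubiquitin ligase, rose 2.01-fold, PHF19, a Polycomb cofactor, fell 2.07-fold, and MBD2, which binds methylated DNA and lies on chromosome 18, fell 2.76-fold.

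The labelled cell type was checked against marker lists. The mesenchymal markers of such lines were abundant in both groups, with a summed level of 6954 ± 187 CPM in KO and 9471 ± 139 CPM in WT. All 12 fell, and AXL, a receptor kinase, had 438.7, 404.7 and 413.5 CPM in KO, against 789.6, 789.7 and 795.8 CPM in WT. SNAI2, a transcription factor of the mesenchymal state, fell 3.16-fold. Of the luminal and epithelial list 14 of 20 genes were tested, of which 9 fell (64.3%, against 44.8% of all coding genes) and 1 rose. The tested members, ERBB2, GATA3 and EPCAM among them, summed to 591.6 ± 9.39 CPM in KO and 1231 ± 11.9 CPM in WT. The members not tested, ESR1, PGR, FOXA1, CDH1, ESRP1 and GRHL2, had 45, 23, 99, 62, 98 and 10 counts over 18 libraries. The keratins KRT8 and KRT18 fell 2.40-fold and 2.77-fold.

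Markers of blood and endothelial cells summed to between 700 and 740.1 CPM in KO and between 174 and 181.4 CPM in WT, of which CD68 made 680.9 CPM on average in KO and 145.9 CPM in WT. Of 9 tested genes 3 rose (33.3%) and 3 fell (33.3%), against 35.4% and 44.8% of all coding genes. KDR, a receptor for VEGF, was higher by 3.38-fold and PECAM1 and TIE1 were lower by 2.25-fold each. Of the members not tested, CD3E, HBB and CDH5 had 2, 1 and 4 counts over 18 libraries. Fibroblast and neural markers summed to 11.1 to 13.1 CPM in KO and 27.2 to 29.5 CPM in WT. Of 8 tested 5 fell (62.5%) and none rose.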

How the data were processed

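Per the labels' protocols, 500 ng of total RNA entered each TruSeq stranded mRNA library. Per the submitters' processing notes, the tools were Trim Galore 0.6.10 for trimming and Salmon 1.10.0 for quantification, with hg19 named as genome. The deposited tables, per the file headers, hold 252048 transcripts per library, each with the authors' estimated (expected) count, TPM and effective length. The deposited expected counts were summed here to 62749 genes and then rounded (32.5% of single transcripts had no whole number, tolerance 1e-06). The deposited TPM was summed for IMPDH2, IMPDH1 and transcript types only, and the deposited effective length served 1 alternative, an offset for transcript length. The series table gave the same counts (largest difference 0.0). Positions are GRCh38, from GENCODE 29, which covered 57804 genes. Promoters and motifs come from RefSeq.

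The filter filterByExpr kept 19252 genes. The edgeR 4.0.16 quasi-likelihood test (R 4.3.3) with TMM was fitted over all 18 libraries with a mean per group, with Benjamini-Hochberg adjustment over all genes tested and an adjusted p threshold of 0.05. The common biological coefficient of variation was 4.87%. A difference of at least 2-fold was counted where the adjusted p passed too. The neighbours of single genes and the search for runs used the fold change alone. On simulated counts for 18847 genes the test found 73.1% of 67 genes shifted by 0.5 (log2), 86.6% of 67 shifted by 1 and 93.9% of 66 shifted by 2. Of its calls there 2.9% were false. No other genes were shifted, the shifts went in both directions, and the spread was that of the fit itself. In the data 72.7% of genes were called, so these rates need not hold for KO against WT. Replicates of a group differed by more than sampling noise (chi-square per degree of freedom 4.34 to 6.35). DESeq2 1.42.0 gave an alternative test, and the other alternatives are given with their effect in the closing section. Tables were joined and plots drawn in Python 3.11.15 (pandas 2.3.3, numpy 2.4.6, matplotlib 3.10.9).

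The members, the 38 lists and the named genes were chosen with earlier results of these data known. The rule for named genes took IMPDH2, IMPDH1 and all guanine-branch genes, 12 coding genes in each direction by fold (called, no overlap between groups, at least 10 CPM in the higher group), the 10 most abundant called at least 2-fold in each direction, and up to 4 members of each list per direction, which gave 299 genes, of which the text names a part. Some genes and 1 list are not reported here. Reads were not analysed here.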

Additional observations from a re-analysis of the deposited data

How the results depend on the processing

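The count of called genes was 13996, and it was 13563 by DESeq2, 14523 without the filter on low counts, 13475 with KO and WT fitted alone, 12041 with an offset for transcript length and 13547 to 13641 with 1 library left out. Of the called genes 83.7% were also called with the length offset. Numbered libraries of KO and WT do not pair (correlation of deviations -0.055, -0.043 and -0.042), and a replicate block gave 13955 calls. Coding genes fitted alone gave 1352 genes at least 2-fold higher, against 1238 coding genes so called among all genes. With a minimum of 1 CPM in place of 5 CPM, 26 genes were at 0 in KO and 11 at 0 in WT. In shares of TPM in place of counts, KO minus WT was 0.972 percentage points for lncRNA, 0.359 for mitochondrial ribosomal RNA, 0.091 for processed pseudogenes, -0.143 for retained introns, -0.298 for transcripts of nonsense-mediated decay and -0.5 for coding genes' transcripts without a defined coding part. The last 3 had the other sign by counts, at 0.387, 0.068 and 0.065. With the length offset ERBB3 turned to -0.13 (adjusted p = 0.523, edgeR) and 15 other named genes no longer passed, among them IRF1 and SMAD6. Medians were followed for the 38 lists, all genes and coding genes, 40 in all, and 18 moved with it by more than the replicate spread. With coding genes fitted alone 33 moved, without WT replicate 3 17 did, and without another library 5 to 9 did. The length offset shifted 5 list medians by 0.1 or more: EGF receptor (-0.46, then -0.13), interferon-stimulated (0.55, then 0.74), TGF-beta (-0.47, then -0.35), G1/S (-0.11, then -0.01) and fibroblast and neural markers (-0.88, then -0.99). XAGE1B lost its call in 5 settings. The causes were not tested. Depth limits genes near the floor of 3 counts, and the labels do not separate knockout from clone.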

Other observations

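Among noncoding RNAs, chosen after their values were seen, NEAT1, the scaffold of nuclear paraspeckles, had 1032 ± 34.9 CPM in KO and 418.3 ± 19.1 CPM in WT, and MALAT1, a nuclear speckle RNA from the same part of chromosome 11, had 220.1 ± 9.48 CPM in KO and 96.1 ± 5.87 CPM in WT. HCG18, which lies in the MHC region of chromosome 6, had 123.7 ± 0.966 CPM in KO and 49.4 ± 0.396 CPM in WT. Lower in KO were LINC02582 on chromosome 18, with 16.4 ± 1.03 CPM in KO and 83.5 ± 6.19 CPM in WT, and MIR100HG, the host of a microRNA cluster, with 22.8 ± 0.780 CPM in KO and 54.4 ± 2.02 CPM in WT. Each passed edgeR's quasi-likelihood test with at least a 2-fold difference.

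The other 3 genes at 0 in KO with at least 5 CPM in WT were noncoding, and unlike the 9 coding ones they had 1 CPM or more in each of the 4 other knockout-derived groups. PPP1R14BP3, a processed pseudogene, averaged 14.0 CPM in knockout cells with guanosine, 6.32, 5.86 and 5.53 CPM in those with unlocalised, nuclear and cytosolic IMPDH2, and 5.97 CPM in WT. SMG1P1, a pseudogene of SMG1, averaged 3.11, 4.21, 1.118 and 4.81 CPM in the same 4 groups and 5.37 CPM in WT. The third, the unnamed ENSG00000285779 on chromosome 1, averaged 12.8, 8.74, 13.6 and 7.998 CPM in those groups and 17.3 CPM in WT. Both pseudogenes share sequence with a parent gene, so their counts depend on how the quantification divides reads.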
